A study of Mus musculus with 6 samples.

Results

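The 37 genes of the mouse mitochondrial genome (mtDNA) were examined in the tibialis anterior (TA) muscle of aged mice. They were every gene that the count table placed on the mitochondrial chromosome, 37 of 55416 in all, and comprised 13 protein genes, 2 rRNA genes and 22 tRNA genes. RNA was sequenced from 3 wild-type (WT) and 3 SELENOW knockout (KO) mice, all male and 24 months old, on a background given in the methods as C57BL/6N, naturally aged and otherwise untreated. SELENOW is a small selenoprotein, and the KO line carries a deletion of exon 4 of its gene that was made with CRISPR-Cas9 and 2 sgRNAs, so the deletion is present in the whole body and not in muscle alone. The comparison addresses how loss of SELENOW changes gene expression in aged muscle. Total counts were 25351976 to 29111213 in the WT and 27345022 to 27815342 in the KO libraries, and all 37 genes passed the filter on low counts. All counts are per gene and come from whole muscle, in which fewer cells of a type and less RNA per cell cannot be told apart.

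The mtDNA is a small circle present in many copies in each mitochondrion. It encodes core subunits of the respiratory chain and of ATP synthase, together with the rRNAs and tRNAs of the ribosome that translates them inside the organelle. Both strands are transcribed as long precursors, which are cut at the tRNAs that punctuate them, so the genes of one strand share a start but can differ in how long their RNAs last. Every other protein that copies, transcribes, cuts or translates mtDNA is encoded in the nucleus. Skeletal muscle depends on this system for its supply of ATP.

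Of the 6 genes that passed the thresholds given below, 3 were protein genes and 3 were tRNA genes. The tRNA genes are short enough to be shown whole, and their sequences are given first, with those of 3 others for comparison. They were read from the GENCODE M21 transcripts in the direction of the tRNA and matched the positions of the deposited table, in which all 37 genes have the same start and end as in GENCODE M21 (GRCm38). The capitals mark the anticodon, the triplet that pairs with the codon, found as the triplet for the named amino acid inside a loop of 7 bases flanked by a stem of 5 bases of which at least 4 pair. The first 3 are the tRNAs for glutamate, tyrosine and cysteine, which passed the thresholds. Those for asparagine and alanine lie beside the last pair and also did not overlap between genotypes, and the tRNA for glutamine had the lowest fold change of all 37 genes. All 6 lie on the minus strand.
mt-Te (chrM:14071-14139, minus strand): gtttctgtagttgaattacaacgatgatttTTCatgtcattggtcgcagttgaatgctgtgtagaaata
mt-Ty (chrM:5260-5326, minus strand): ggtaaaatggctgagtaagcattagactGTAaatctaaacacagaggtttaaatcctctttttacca
mt-Tc (chrM:5192-5257, minus strand): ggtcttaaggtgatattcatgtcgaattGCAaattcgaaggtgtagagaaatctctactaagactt
mt-Tn (chrM:5089-5159, minus strand): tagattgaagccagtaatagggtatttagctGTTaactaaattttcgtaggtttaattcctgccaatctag
mt-Ta (chrM:5018-5086, minus strand): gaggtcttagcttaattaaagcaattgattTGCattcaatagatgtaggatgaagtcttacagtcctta
mt-Tq (chrM:3772-3842, minus strand): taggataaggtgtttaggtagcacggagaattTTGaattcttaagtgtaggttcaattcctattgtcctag

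Most mitochondrial genes were higher in KO than in WT muscle, by modest amounts. The log2 fold change was above 0 for 32 of the 37 genes, with a median of 0.41, whereas the median over all 15623 genes tested was -0.004. By class, the median was 0.46 for the protein genes and 0.30 for the tRNA genes, and the mean of the 2 rRNA genes was 0.35. The study called a gene differentially expressed (a DEG) if its unadjusted p was below 0.05 and its fold change either exceeded 1.5 or was less than 0.7. By these thresholds, 6 of the 37 genes (16.2%) passed as higher in KO and 0 as lower. Among all genes tested, 2.21% passed as higher and 3.14% as lower. The 6 genes were mt-Nd5, mt-Nd4l, mt-Nd6, mt-Te, mt-Ty and mt-Tc. All 3 KO libraries lay above all 3 WT libraries for 10 of the 37 genes (27.0%), against 7.53% of all genes, and the reverse held for 0 of the 37, against 7.87% of all genes. The mitochondrial genes are no independent draws in such a count, since they share precursors and in some cases bases.

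edgeR's quasi-likelihood test with Benjamini-Hochberg adjustment over all genes gave 0 mitochondrial genes with an adjusted p below 0.05, and 0 genes in all (0.0% of 15623). The lowest adjusted p of a mitochondrial gene was 0.299 in that test. An unadjusted p under 0.05 was found for 15 of the 37 genes (40.5%) and for 1545 of all 15623. In DESeq2's test on the same genes, mt-Te (adjusted p = 0.0348), mt-Nd5 (0.0364) and mt-Ty (0.0496) had an adjusted p under 0.05, as did 0.288% of all genes. One library carried much of the uncertainty. WT replicate 1 had the highest level of the WT group for 35 of the 37 genes and exceeded the lowest KO library for 27 of them. Without it, 21 mitochondrial genes passed the DEG thresholds as higher, as did 2.6% of all genes. Without WT replicate 3, which was the lowest of all 6 libraries for 28 genes, only mt-Nd5 and mt-Te did (2.66% of all genes). Without KO replicate 1 the number was 3 (2.71% of all genes), and without KO replicate 3 it was 10 (2.63%). In every one of these fits 0 mitochondrial genes passed as lower.

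**Figure D1:**
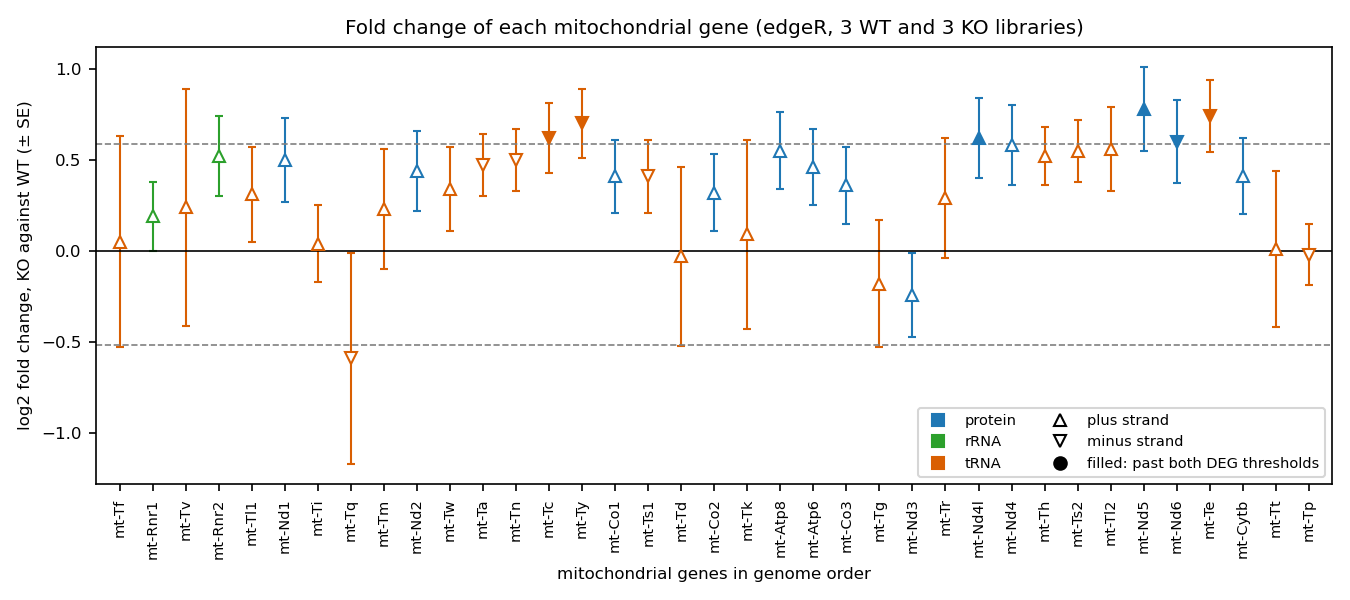
Log2 fold change of KO against WT with its SE for each mitochondrial gene, in genome order; colour gives the class, the direction of the triangle the strand, and filled symbols the 6 genes past both DEG thresholds (dashed lines at the fold change limits). Of the 37 genes, 32 lie above 0 and the filled symbols lie between 0.60 and 0.78.

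The 7 subunits of complex I, which takes electrons from NADH into the respiratory chain, held all 3 protein genes past the thresholds. These were 42.9% of the 7, where 2.21% of all genes passed as higher. All 3 also lie in one run of adjacent genes described below, and complex was not separated from position. The median log2 fold change of the 7 genes was 0.58. mt-Nd5, a subunit of the proton-pumping membrane arm, had a TMM-scaled CPM (the count relative to library size, on a common scale set by edgeR) of 20200, 14300 and 14400 in WT replicates 1 to 3 and of 34600, 28500 and 20800 in KO replicates 1 to 3. The groups did not overlap, but the lowest KO library was only just above WT replicate 1. Its log2 fold change of 0.78 (SE 0.23, edgeR adjusted p = 0.316) was the largest of all 37 genes. It remained past the thresholds when any one library was left out. mt-Nd4l, another membrane subunit, had a CPM of 10300, 5760 and 7400 in WT and of 13200, 12400 and 10600 in KO, so that the lowest KO value stood just over the highest WT value. Its log2 fold change was 0.62 (SE 0.22, edgeR adjusted p = 0.398). mt-Nd6, the single protein gene on the minus strand, had a CPM of 14200, 8800 and 8500 in WT and of 19000, 15000 and 13600 in KO. WT replicate 1 exceeded KO replicate 3, and the log2 fold change was 0.60 (SE 0.23, edgeR adjusted p = 0.440). Both mt-Nd4l and mt-Nd6 passed in 3 of the 6 fits that left out a library, and fell short without WT replicate 2, WT replicate 3 or KO replicate 1.

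Of the other complex I genes, 3 were above 0 and 1 below. mt-Nd4 had the largest fold change among the protein genes that did not pass. Its CPM was 32200, 19300 and 21700 in WT and 40700, 38000 and 31200 in KO, where KO replicate 3 fell just under WT replicate 1, and its log2 fold change was 0.58 (SE 0.22, edgeR adjusted p = 0.440). mt-Nd1 and mt-Nd2 had log2 fold changes of 0.50 and 0.44 (edgeR adjusted p = 0.503 and 0.533). mt-Nd3 was the one protein gene below 0. Its CPM was 4970, 4590 and 2550 in WT and 3830, 3390 and 3060 in KO, so that the KO libraries lay inside the wide WT range. The log2 fold change was -0.24 (SE 0.23, edgeR adjusted p = 0.763), and it was between -0.48 and -0.06 when a library was left out.

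**Figure D2:**
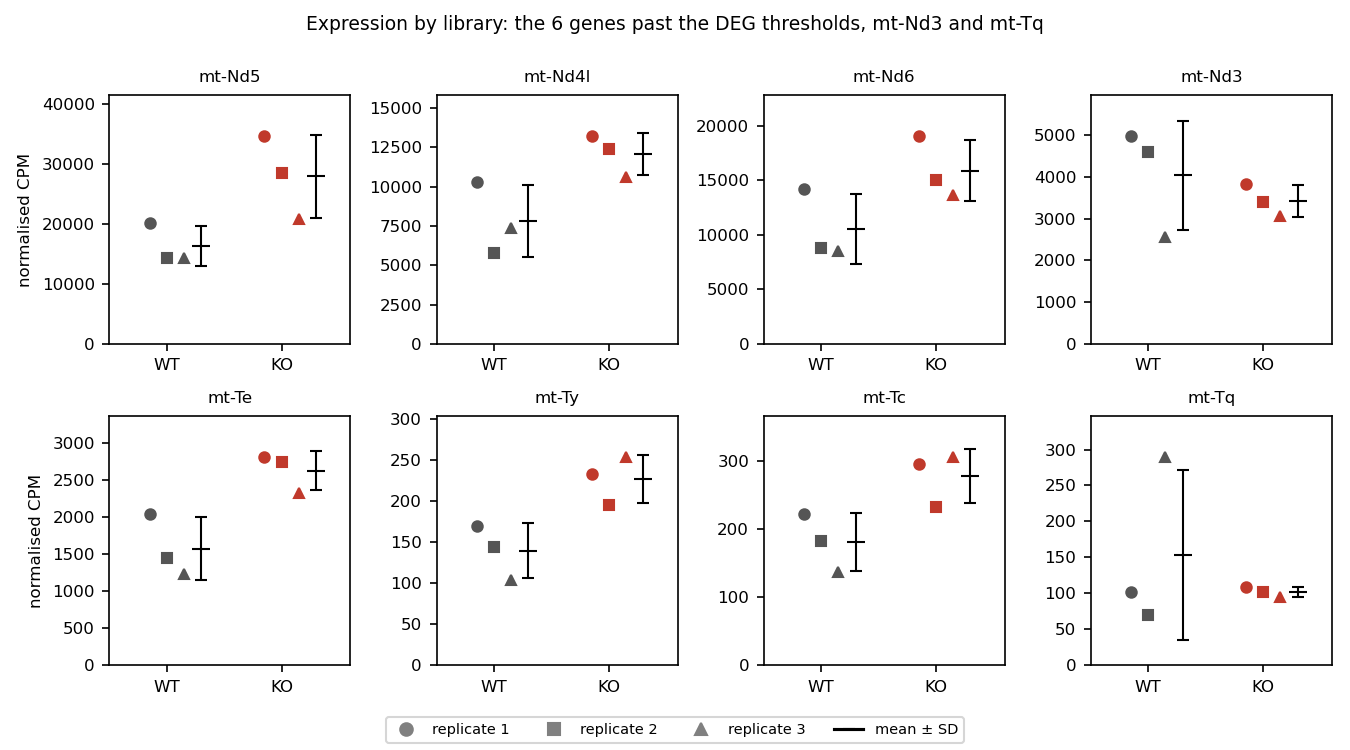
TMM-scaled CPM of 8 mitochondrial genes in each library (WT grey, KO red; the symbol gives the replicate number, the bar the mean ± SD of 3 libraries), with axes starting at 0. The KO libraries lie above the WT libraries for mt-Nd5, mt-Nd4l, mt-Te, mt-Ty and mt-Tc, WT replicate 1 reaches into the KO range for mt-Nd6, and for mt-Tq WT replicate 3 stands alone at 289.

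None of the 6 protein genes outside complex I passed the thresholds, and their log2 fold changes lay between 0.32 and 0.55. The 3 complex IV genes encode the catalytic core of cytochrome c oxidase, which reduces oxygen. mt-Co1, mt-Co2 and mt-Co3 had log2 fold changes of 0.41, 0.32 and 0.36, each with overlapping genotypes. mt-Cytb, the mtDNA-encoded subunit of complex III, had 0.41 (SE 0.21, edgeR adjusted p = 0.554). Of the ATP synthase pair, mt-Atp8 was at 0.55 (SE 0.21, edgeR adjusted p = 0.425) with all KO libraries (29100 to 36500 CPM) above all WT libraries (19700 to 29000 CPM), the nearest values of the groups being almost equal. mt-Atp6, which forms part of the proton channel, was at 0.46 (SE 0.21, edgeR adjusted p = 0.505). These 2 genes overlap by 43 bases (chrM:7927-7969, plus strand, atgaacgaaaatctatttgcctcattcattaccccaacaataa), shown because a read lying there belongs to both. The count table therefore cannot separate them fully.

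The shares of the mitochondrial counts held by each complex differed between genotypes by a few percentage points or less. Complex I genes took 35.5%, 33.7% and 34.4% of the mitochondrial counts in WT replicates 1 to 3 and 37.9%, 36.8% and 35.4% in KO replicates 1 to 3, with WT replicate 1 just above KO replicate 3. Complex IV genes took 32.5%, 33.3% and 33.7% in WT and 30.1%, 30.8% and 32.3% in KO, so that the groups did not overlap, though the highest KO value, 32.3%, almost met the lowest WT value, 32.5%. For the ATP synthase genes the share was 20.4%, 20.2% and 20.5% in WT and 20.6%, 20.9% and 20.8% in KO, and here the KO libraries were all above the WT libraries. Among single genes, the shares of mt-Atp8 and mt-Te were higher in all KO than in all WT libraries, and those of mt-Rnr1, mt-Tq, mt-Co2, mt-Co3 and mt-Nd3 were lower. Since such shares depend on each other and an exact permutation test of 3 against 3 libraries cannot give a p under 0.1, they were not tested.

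Neither rRNA gene passed the thresholds. mt-Rnr1 encodes the RNA of the small and mt-Rnr2 that of the large subunit of the mitochondrial ribosome. mt-Rnr1 had a CPM of 2200, 1520 and 1520 in WT and of 2140, 1760 and 2070 in KO, a log2 fold change of 0.19 (SE 0.19, edgeR adjusted p = 0.764). The groups overlapped, with WT replicate 1 the highest of all. mt-Rnr2 had a CPM of 4890, 3540 and 2640 in WT and of 5540, 5470 and 4860 in KO, where only WT replicate 1 reached the KO range. Its log2 fold change was 0.52 (SE 0.22, edgeR adjusted p = 0.471). The genes follow each other on the same strand with mt-Tv between them, and the count of mt-Rnr2 was 223%, 233% and 173% of that of mt-Rnr1 in WT replicates 1 to 3 and 259%, 311% and 234% in KO replicates 1 to 3. The lowest KO percentage stood 1 point over the highest WT percentage. This was one of 10 ratios computed between members or classes, and one of 2 in which the genotypes did not overlap, the other being mt-Nd3 to mt-Co3 (15.9%, 20.9% and 12.6% in WT, 11.2%, 11.1% and 10.3% in KO).

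The 22 tRNA genes are described by strand, and the difference between the strands was not tested. Of the 8 on the minus strand, 3 passed the thresholds as higher (37.5%, where 2.21% of all genes did) and 5 had all KO libraries above all WT libraries (62.5%, where 7.53% of all genes did), with a median log2 fold change of 0.49 and a range of -0.59 to 0.74. Of these 5 genes, 4 are neighbours in one block. Of the 14 on the plus strand, 0 passed and 2 did not overlap, with a median of 0.24 and a range of -0.18 to 0.56. The kit named for these libraries does not mark strand and the way strand was counted is not stated, so a read of a minus-strand tRNA cannot be told apart from a read of the plus-strand precursor over the same bases. Nor do the counts separate a mature tRNA from a longer RNA that contains it.

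mt-Te had the largest fold change of the tRNA genes. Its CPM was 2050, 1450 and 1230 in WT and 2810, 2750 and 2330 in KO, and its log2 fold change was 0.74 (SE 0.20, edgeR adjusted p = 0.301). Every KO library was above every WT library, and the gene stayed past the thresholds whichever library was left out. It abuts mt-Nd6 on the same strand without a gap, and its count was 14.4% to 16.4% of that of mt-Nd6 in WT and 14.7% to 18.3% in KO. A block of 4 minus-strand genes, mt-Ta, mt-Tn, mt-Tc and mt-Ty, lies between mt-Tw and mt-Co1, and the gap of 32 bases between mt-Tn and mt-Tc holds the origin of light-strand replication. In this order their log2 fold changes were 0.47, 0.50, 0.62 and 0.70, with SEs of 0.17 to 0.19, so neighbours in the block differed by less than the SE. mt-Ty had a CPM of 170, 144 and 104 in WT and of 233, 195 and 253 in KO (edgeR adjusted p = 0.299), and fell short of the thresholds only without WT replicate 3. mt-Tc had a CPM of 222, 182 and 137 in WT and of 296, 232 and 305 in KO (edgeR adjusted p = 0.333). It passed in 3 of the 6 fits without a library, and fell short without WT replicate 3, KO replicate 1 or KO replicate 3. In each of these 4 genes KO replicate 2 was the lowest KO library and still lay above WT replicate 1.

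The other minus-strand tRNA genes did not share this pattern. mt-Ts1, a tRNA for serine and the most abundant of the class, had a log2 fold change of 0.41 (SE 0.20, edgeR adjusted p = 0.531) with overlapping groups. mt-Tp, the tRNA for proline, was at -0.02 (SE 0.17). mt-Tq had the lowest value of all 37 genes, -0.59, but with an SE of 0.58 (edgeR adjusted p = 0.777). Its CPM was 101, 69.5 and 289 in WT and 108, 102 and 94.1 in KO, so that WT replicate 3 alone stood far above the other 5 libraries. Left-out fits moved its log2 fold change from -0.94 to 0.25.

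On the plus strand, the libraries of one genotype differed widely. mt-Tl2, a tRNA for leucine, had the largest fold change among the tRNA genes that did not pass. Its CPM was 49.1, 32.4 and 35.2 in WT and 76.3, 52.8 and 42.9 in KO, where KO replicate 3 fell below WT replicate 1, and its log2 fold change was 0.56 (SE 0.23, edgeR adjusted p = 0.480). Its neighbours mt-Th and mt-Ts2, for histidine and the other serine tRNA, were at 0.52 and 0.55, with all KO libraries above all WT libraries. The other 11 genes had log2 fold changes from -0.18 (mt-Tg) to 0.34 (mt-Tw), with SEs up to 0.65 (mt-Tv). KO replicate 1 was the highest of the 3 KO libraries for 13 of the 14 genes and WT replicate 1 the highest WT library for all 14. The median of the class relative to the WT mean was 0.47, 0.03 and -0.54 on the log2 scale in WT replicates 1 to 3 and 0.78, 0.02 and -0.07 in KO replicates 1 to 3. Only KO replicate 1 was above WT replicate 1 by this measure. The coefficient of variation among WT libraries had a median of 35.4% over these genes, against 27.3% over the protein genes.

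Along the genome, the 8 adjacent genes from mt-Nd4l to mt-Te, chosen after their values were seen, had log2 fold changes between 0.52 and 0.78, and 4 of them were among the 6 genes past the thresholds. They span chrM:9877-14139 and include genes of both strands. mt-Nd5 and mt-Nd6 overlap there by 14 bases on opposite strands (chrM:13552-13565, read on the plus strand, ttaatctcgagtaa), which is shown for the same reason as the overlap above. mt-Tr on one side and mt-Cytb on the other were at 0.29 and 0.41.

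The share of all counts that fell on mtDNA genes overlapped between genotypes. It was 37.3%, 29.1% and 29.8% in WT replicates 1 to 3 and 40.3%, 38.2% and 35.4% in KO replicates 1 to 3, where WT replicate 1 again lay inside the KO range. Protein genes held 95.5% to 96.2% of these counts in the 6 libraries, rRNA genes 1.67% to 1.92% and tRNA genes 2.11% to 2.56%. On the log2 scale, the ratio of tRNA to protein counts averaged -5.36 ± 0.08 (SD, n = 3) for WT and -5.37 ± 0.14 (SD, n = 3) for KO. That of rRNA to protein counts averaged -5.73 ± 0.11 (SD, n = 3) for WT and -5.77 ± 0.10 (SD, n = 3) for KO. Both differences, -0.02 and -0.04, were smaller than the spread between replicates.

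**Figure D3:**
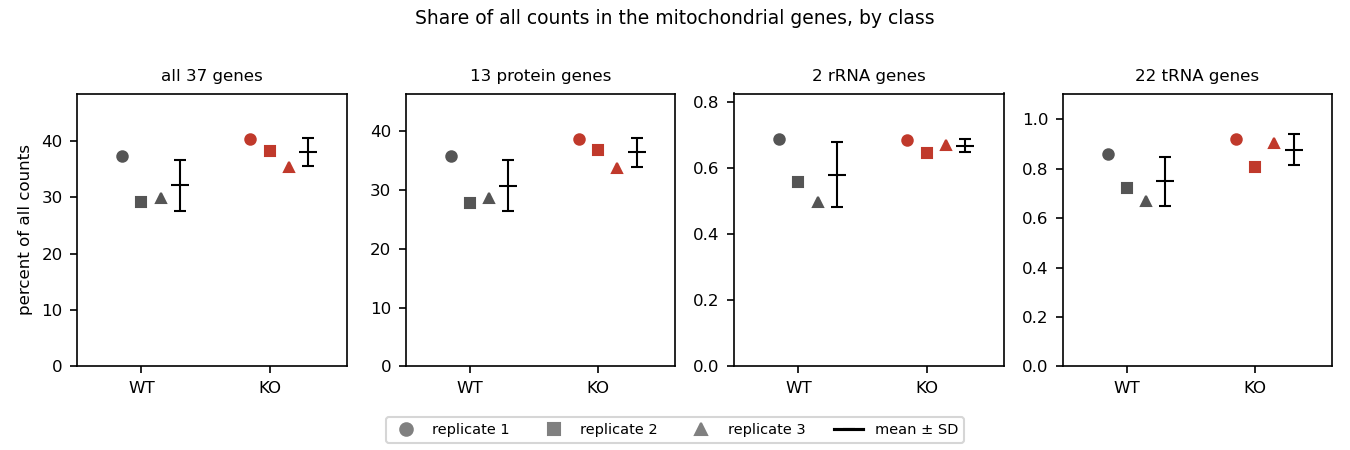
Percent of all counts on the 37 mitochondrial genes and on each class, by library (WT grey, KO red; the symbol gives the replicate number, the bar the mean ± SD of 3 libraries), with axes starting at 0. WT replicate 1, at 37.3%, lies between KO replicates 2 and 3 (38.2% and 35.4%).

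Per kb of gene, the levels within mtDNA spanned a wide range. On this scale (mean CPM per kb in WT) mt-Atp8 was highest at 113000, followed by mt-Atp6 at 55800, and the protein genes reached down to mt-Nd5 at 8930. The rRNA genes were lower, at 1830 (mt-Rnr1) and 2330 (mt-Rnr2), and how the libraries were selected for poly(A) or against rRNA is not stated. Among the tRNA genes, mt-Ts1 at 41300, mt-Te at 22800 and mt-Tl1 at 9070 stood within the range of the protein genes, while the median was 1660 and mt-Tf was lowest at 146. The tRNA genes are 59 to 75 bases long, shorter than a read by the methods, so their counts can come from reads that extend into neighbours. Counts assigned to near-identical nuclear copies, described below, are left out and differ between protein genes. The order per kb is therefore not one of RNA abundance. mt-Tf was counted 116 to 378 times per library, so even the least abundant member was well covered. In KO, mt-Atp8 was again the highest of the 37 genes at 165000 CPM per kb and mt-Tf the lowest at 151, with mt-Ts1 at 54800, while the lowest protein gene was mt-Nd3 at 9850.

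**Figure D4:**
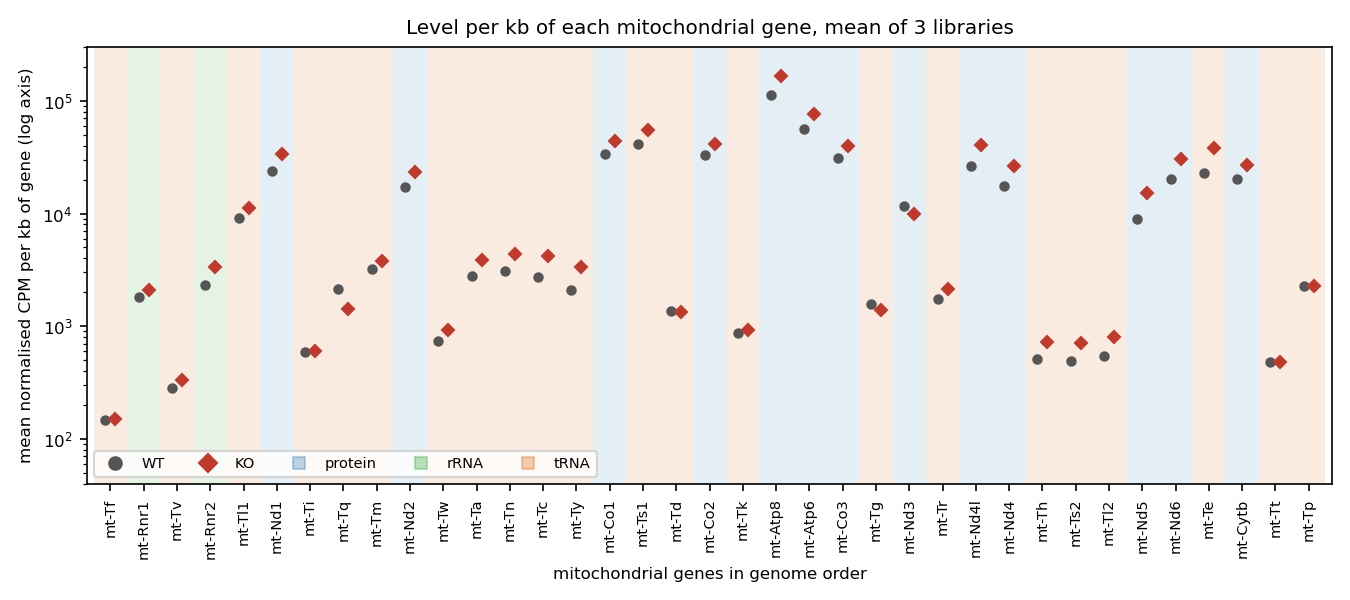
Mean TMM-scaled CPM per kb of gene (log axis) of each mitochondrial gene in genome order, for WT (circles) and KO (diamonds), with the class as background colour. Values run from 146 (mt-Tf) to 113000 (mt-Atp8) in WT, and mt-Ts1, mt-Te and mt-Tl1 are the tRNA genes within the range of the protein genes.

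Near-identical stretches in the nuclear genome limit what these counts can assign. A search of GENCODE M21 transcripts found 17 nuclear genes with at least 100 bases at 90% identity or more to a mitochondrial gene, and 7 of them matched at 99% or more. Such copies are remnants of mtDNA inserted in the nucleus and are annotated here as pseudogenes. Gm28437, which is identical to mt-Co3 over 783 bases, had 728860 counts in WT replicate 1, equal to 94.5% of the count of mt-Co3 in that library. The corresponding percentages over the 6 libraries were 90.6% to 96.8% for Gm28661 and mt-Co2, 88.2% to 95.2% for Gm10925 and mt-Atp6, and 85.2% to 93.0% for Gm10222 and mt-Nd4l. Gm28439, identical to mt-Nd4 over 876 bases, had 50.6% to 59.4% of the count of mt-Nd4. Reads from an identical stretch cannot be told apart, and how reads with several matches were counted is not stated.

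Some of the copies passed the DEG thresholds as well. Gm28439 and Gm10222, with log2 fold changes of 0.70 and 0.64, met both DEG thresholds, and their mitochondrial genes mt-Nd4 and mt-Nd4l were at 0.58 and 0.62. Of the 13 copies tested, 2 passed as higher and 0 as lower, where 2.21% and 3.14% of all genes did. Both are identical to their mitochondrial gene over the matched bases, so their values are not independent of those of mt-Nd4 and mt-Nd4l. All 17 copies together took 14.1%, 10.9% and 11.5% of all counts in WT and 14.4%, 13.9% and 13.3% in KO. Without them in the total, the mitochondrial share was 43.5%, 32.7% and 33.7% in WT and 47.1%, 44.4% and 40.8% in KO, and WT replicate 1 still lay inside the KO range.

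The pair of mt-Nd3 and Gm28438 differed between WT libraries. The copy had at least 95.7% of the count of mt-Nd3 in 5 libraries and 45.1% in WT replicate 2. The 2 sequences differ at 1 of 345 bases, T3C, counted from the first base of mt-Nd3 with its base named first (chrM:9461). The first 30 bases of each (mt-Nd3, chrM:9459-9488, plus strand) are shown with that base in capitals, because mt-Nd3 was the one protein gene below 0 and this is the single base by which the compared stretches differ.
mt-Nd3: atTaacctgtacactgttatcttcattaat
Gm28438: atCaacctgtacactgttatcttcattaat
The log2 fold change of Gm28438 was 0.08, against -0.24 for mt-Nd3, which was at -0.13 without WT replicate 2. What part the copy has in the value of mt-Nd3 was not tested, and neither was whether the mice carried the same base at this position or the same set of nuclear copies.

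**Figure D5:**
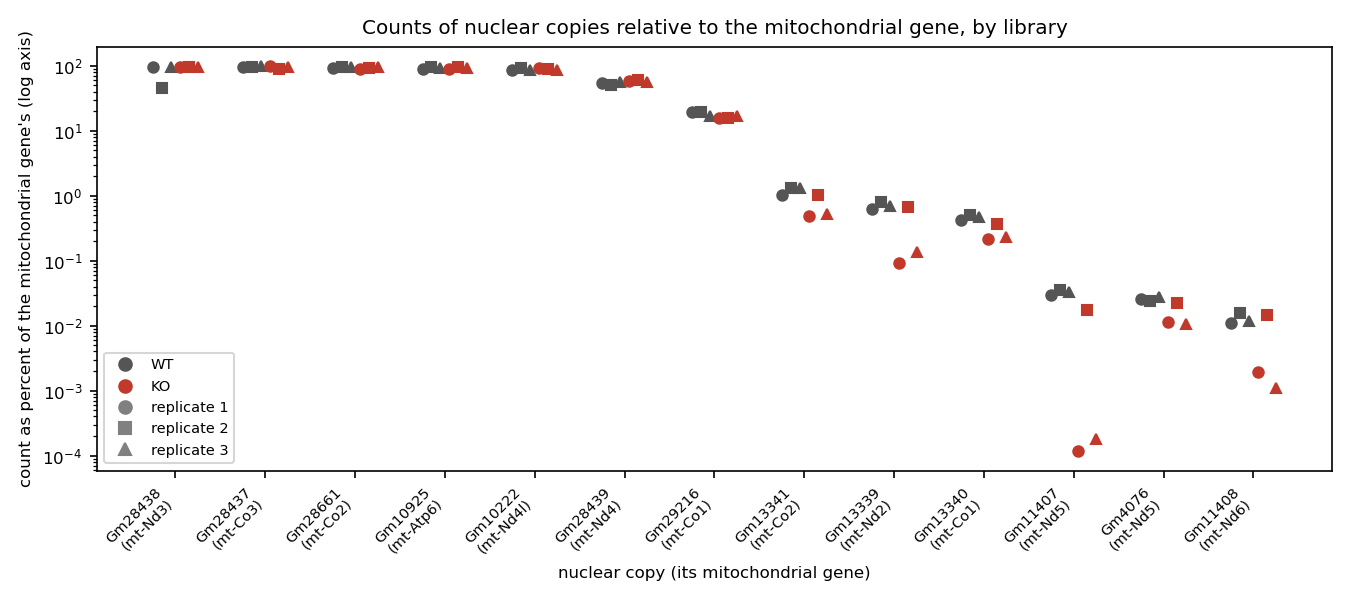
Count of each of the 13 tested nuclear copies as a percent of the count of its mitochondrial gene (log axis), by library (WT grey, KO red; the symbol gives the replicate number). The copies at the left lie near 100%, with Gm28438 at 45.1% in WT replicate 2, and those at the right are near or below 1%, with KO replicates 1 and 3 lowest.

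The nuclear genes that serve mtDNA did not pass the DEG thresholds in either direction. Of 53 genes for transcription, copying, RNA cutting and modification, RNA stability and biogenesis, all were tested and 0 passed, where 5.35% of all genes did. Their log2 fold changes ranged from -0.39 to 0.51 with a median of -0.04, and 22 were above 0. Their adjusted p was 0.05 or more throughout, in edgeR and in DESeq2, and 1 of them had an unadjusted p below 0.05 in edgeR. This was Trit1, which modifies tRNAs and is named because of its value, at a log2 fold change of -0.39. Tfam, which packs mtDNA and starts its transcription, had a CPM of 28.6, 25.3 and 26.3 in WT and of 25.2, 21.3 and 21.6 in KO. Its log2 fold change was -0.24 (SE 0.13, edgeR adjusted p = 0.573). All KO libraries were below all WT libraries, as for Trit1, Prorp and Exog of this list and for 7.87% of all genes. Fastkd5 of this list had all KO libraries above all WT libraries. Polrmt, the mitochondrial RNA polymerase, was at -0.04, and Ppargc1a, a coactivator of mitochondrial biogenesis, at 0.06. Lrpprc and Slirp, which form the complex that holds mitochondrial mRNAs stable, were at 0.03 and -0.14. The log2 fold changes of these 4 genes were about as large as their SEs (0.13 to 0.15) or smaller.

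The checks of the tissue and of the targeted gene follow. The 7 muscle fiber markers (Acta1, Ckm, Myh4 and others) summed to 81300 to 108000 CPM and 0 passed the thresholds. The 7 markers of slow and oxidative fibers, which are rich in mitochondria, summed to 2200 to 2960 CPM in WT and 2450 to 3070 in KO, and 0 of them passed. The slow troponin genes Tnni1, Tnnc1 and Tnnt1 were at -2.49, -1.39 and -1.29 (edgeR adjusted p = 0.593, 0.542 and 0.600) and each was highest in WT replicate 3. Of the rest of this list, Myl2 was at -0.32, while Myh2, Myh7 and Mb were at 0.24, 0.15 and 0.04. Erythroid markers summed to 174 to 293 CPM in WT and 142 to 165 in KO, and 2 of 5 passed as lower (3.14% of all genes did). Leukocyte markers summed to 5.35 to 12.0 CPM in WT and 6.39 to 9.09 in KO. Of the 4 tested, 1 (Cd3e, 1.16) passed as higher, where 2.21% of all genes did, while Ptprc, Adgre1 and Cd68 were at -1.21, -1.11 and 0.05. Endothelial markers summed to 75.4, 57.3 and 44.2 CPM in WT replicates 1 to 3 and to 71.4, 80.3 and 68.0 in KO replicates 1 to 3. In WT, this sum was highest in replicate 1 and lowest in replicate 3, as for most mitochondrial genes. In WT, the sum of the slow and oxidative markers (2960, 2360 and 2200) had the same order. So did that of the 53 nuclear genes that serve mtDNA (828, 759 and 756), with the last 2 values almost equal. In KO replicates 1 to 3 these sums were 2450, 2690 and 3070 and 746, 774 and 783, each lowest in replicate 1. By contrast, replicate 1 was the highest KO library for 30 of the 37 mitochondrial genes. The sum of the muscle fiber markers in WT (81300, 108000 and 84400) did not have the WT order of most mitochondrial genes. Nor did Pecam1 (21.6, 24.8 and 15.1) or Kdr (30.4, 12.6 and 13.9) alone, and only Cdh5 of the endothelial markers had it. The slow and oxidative sum was mostly Mb (1980, 976 and 1280 in WT) and Myh2 (964, 1370 and 890). Neither of these had that order, while Myh7, at a far lower level, did. All 3 endothelial markers had log2 fold changes above 0 and 0 passed. Cdh5 was at 0.50 (edgeR adjusted p = 0.340) and higher in all KO than in all WT libraries, as were 7.53% of all genes. Pecam1, at 0.34 (SE 0.17), and Kdr, at 0.06 (SE 0.36), overlapped between genotypes. Schwann cell markers summed to 4.07 to 9.21 CPM in WT and 6.07 to 10.3 in KO, and 0 of 3 passed. Adipocyte markers summed to 0.224 to 0.774 CPM over all libraries and those of brown adipocytes to 0.28 to 0.885 CPM, with Ucp1 at 0 in 5 libraries. The part of these cells in the mitochondrial values was not tested. Selenow had a CPM of 268, 245 and 219 in WT and of 193, 212 and 210 in KO, a log2 fold change of -0.25 (SE 0.14, edgeR adjusted p = 0.604). Counts of a whole gene do not show the loss of a single exon, so this is no check of the deletion.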

How the data were processed

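RNA from TA muscle of 3 WT and 3 SELENOW KO mice was sequenced as paired-end reads. The authors aligned them with Hisat2, counted them per gene with featureCounts and deposited raw counts, without normalization, with gene lengths. For the genome build, GRCm38 is named in the methods and GRCm39 in the submitters' processing notes. Nuclear positions in the table are not those of GRCm38, and only mitochondrial positions, which are the same in GENCODE M21, were used. Handling of strand and of reads with several matches is not given in the sources used here. The WT column without a number was taken as replicate 1, since the others name replicates 2 and 3.

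Genes were kept with edgeR's filterByExpr (version 4.0.16, R 4.3.3), scaled by TMM factors (0.893 to 1.20) and tested with its quasi-likelihood test, robust, with Benjamini-Hochberg adjustment over 15623 genes. Log2 CPM used a prior count of 1. Per-library values are given for genes past the DEG thresholds, the rRNA genes, the lowest and highest other members of the protein and tRNA classes, Selenow and Tfam; mt-Tc, mt-Ty and mt-Te belong to the first of these. Copies were found with BLAST (version 2.17.0) and the search was added after seeing the data. Members and lists were chosen with earlier results of these data known. Nothing says that the mice were independent of each other in cage or litter, so p-values measure the spread between these libraries, whose counts differed by more than sampling noise (chi-square per degree of freedom 21.0 to 79.3). The steps were also run on simulated data. The outcome of that run is not given here, and nothing is concluded from it about the mitochondrial genes or about fold changes of their size. Alternatives were DESeq2 (version 1.42.0), its size factors, scaling from nuclear genes, other filters and thresholds, robust estimation off, a replicate block and leaving out each library.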

Additional observations from a re-analysis of the deposited data

How the results depend on the processing

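The 6 genes past the DEG thresholds passed under DESeq2, its size factors, both other filters, robust estimation off and scaling from nuclear genes with or without the nuclear copies, the last chosen after seeing the data. mt-Nd4 joined them, for 7, with scaling from nuclear genes alone and with the replicate number as a block. Whether the numbers pair the libraries cannot be settled with 3 libraries in each group. Over all genes, deviations of same-numbered libraries correlated at 0.06, 0.044 and -0.074. Among the 37 genes, replicate 1 was the highest WT library for 35 and the highest KO library for 30. The block changed no other call among the 37 genes. With it, the unadjusted edgeR p went from 0.00489 to 0.000579 for mt-Nd5 and from 0.00254 to 0.00298 for mt-Ty. Requiring an absolute log2 fold change over 1, or an adjusted p under 0.05 in edgeR, left 0 genes, against 3 by DESeq2's adjusted p. Leaving out a library gave 2 to 21 of the 37 genes as higher and 0 as lower, while 1.48% to 2.71% of all genes passed as higher. It gave a median log2 fold change of 0.34 to 0.69 for the protein genes and of 0.03 to 0.60 for the tRNA genes. The share difference was 4.4 to 8.5 percentage points. The log2 ratio of rRNA to protein counts, KO minus WT, was -0.29 with mt-Rnr1 alone and 0.07 with mt-Rnr2 alone, each gene having its own fold change. Without the filter on low counts, 617 of all genes passed as higher and 1163 as lower, against 345 and 491 in the fewer genes tested with it. Depth was not varied, and even the least abundant member had 116 counts or more in each library.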

Other observations

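Some of the less similar nuclear copies showed a pattern among the KO libraries that their mitochondrial genes lacked. Gm11407, a copy of mt-Nd5 with 92.42% identity over 1055 bases, had 146, 165 and 143 counts in WT replicates 1 to 3, 124 in KO replicate 2, and 1 count each in KO replicates 1 and 3. Gm13339, a copy of mt-Nd2 with 96.67% identity, had 3523, 4391 and 2864 counts in WT, 3871 in KO replicate 2, and 611 and 800 in KO replicates 1 and 3. Gm13340 (mt-Co1) and Gm13341 (mt-Co2) had 6325 and 7779 counts in KO replicate 2, close to or inside the WT range, while KO replicate 1 had 3846 and 3576 and KO replicate 3 had 3909 and 3583. Gm11408 (mt-Nd6) had 9 and 4 counts in KO replicates 1 and 3 and 30 to 53 in the other 4 libraries. The KO group thus split into the same pair of libraries and 1 other for all 5 copies, which were picked for this pattern. None of them passed the DEG thresholds, their log2 fold changes lying between -1.63 (Gm11407) and -0.35 (Gm13340). Gm4076, a copy of mt-Nd5 with 95.18% identity, was not picked. It had 97 and 59 counts in KO replicates 1 and 3, 156 in KO replicate 2 and 110 to 128 in WT. Its log2 fold change was -0.01. The cause was not tested, and the strain background of the single mice, given in the methods as C57BL/6N, was not checked here.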
